A study of Mus musculus with 2 samples.

Results

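The 8 genes described here build caveolae or serve the repair of the muscle cell membrane: the caveolins Cav1, Cav2 and Cav3, the cavins Cavin1, Cavin2, Cavin3 and Cavin4, and dysferlin, Dysf. They were taken by symbol from the deposited transcript tables and joined by gene ID to the gene tables, which hold 55536 annotated genes. All 8 were found. The rule is a list of names and uses no measured value, but it was drawn up with earlier results of these data known. The data are total RNA sequencing of the gastrocnemius, a calf muscle, of 2 males, 4 days old, of the mouse hybrid B6CASTF1/J (C57BL/6 by CAST), with no treatment, allele or transgene named in the labels. The 2 libraries, from animals numbered 3 and 4 and called replicate 1 and replicate 2 below, form 1 group, each made from 300 ng of RNA with added spike-in transcripts. The comparisons that this design allows are therefore between genes within each library and between the 2 animals. The labels number the animals separately but carry 1 donor record, so the spread between libraries may be partly or wholly technical. The word animal below follows those numbers. With 2 values, an exact sign-flip test cannot reach the usual threshold, so ratios are given with their spread and without a p-value.

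Caveolae are flask-shaped pits of the plasma membrane, made of caveolins, which sit in the inner leaflet as hairpins and oligomerise, and of cavins, which coat the pit from the cytoplasm. Most cell types with caveolae use Cav1 and Cavin1, and muscle fibres use Cav3, with Cavin4 as the muscle member of the cavin family. In skeletal muscle caveolae flatten under stretch and take part in the making of the transverse tubules, and dysferlin, a calcium-binding membrane protein, is needed for the resealing of torn sarcolemma. Inherited loss of CAV3, CAVIN1 or DYSF function causes muscle disease in humans.

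Annotated genes held 35281187 expected counts in replicate 1 and 32301531 in replicate 2. The level of a gene is given in TPM, the transcript count per effective length scaled to a fixed sum in each library, so that genes can be compared. Values are from the alignment-based gene tables unless the tables made directly from reads are named, and the members' TPM was 1.16 to 2.05 times as high in the latter. The median over 11692 nuclear protein-coding genes was 1.58 times in replicate 1 and 1.61 times in replicate 2, so levels are compared within 1 kind of table. All 8 markers of muscle fibres were above 1 TPM in both libraries, and their summed TPM was 43538 and 39971. These are whole-muscle libraries, in which fewer cells of a type and less RNA per cell cannot be told apart.

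By TPM the order was Cav1 and Cavin1, then Cav3, Cavin4, Cavin2 and Dysf, Cavin3 and Cav2. The values of Cav1 and Cavin1 overlapped between the libraries, as did those of Cavin2 and Dysf, and every other pair of neighbours was separated in both libraries. With protein-coding transcripts alone, an alternative chosen after seeing the data, Dysf had 27.71 and 28.17 TPM and lay below Cavin2 in both libraries. All 8 genes were above 1 TPM in both animals. Of the 55536 annotated genes, 13987 in replicate 1 and 14472 in replicate 2 had at least 1 TPM. The counts above 1 TPM given for the gene lists were not tested against that background. Ranked by mean TPM among 22015 nuclear protein-coding genes, Cav1 stood at 339 and Cav2, the lowest, at 4701. In the tables made directly from reads Cavin1 was above Cav1 and Cavin2 above Dysf in both libraries, without overlap.

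**Figure D1:**
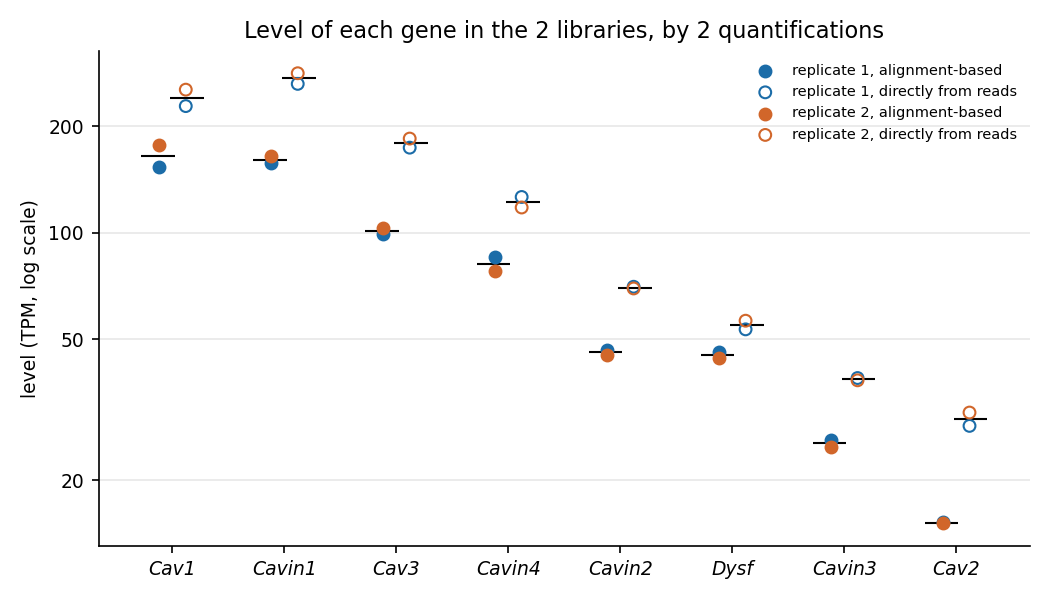
Level of the 8 genes in TPM on a log scale, with filled points for the alignment-based tables, open points for the tables made directly from reads, blue for replicate 1, orange for replicate 2 and a bar at the mean of the 2 libraries. Cav1 and Cavin1 lead at 165 and 161 TPM by the alignment-based tables, Cav2 is lowest at 15.2 TPM, and the open points lie above the filled points for each gene.

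Cav1, the general caveolin (ENSMUSG00000007655.16, mm10 chr6:17306335-17341452, plus strand), had 153.3 TPM in replicate 1 and 176.47 in replicate 2, a mean of 165 ± 16.4 (SD, n = 2) from 9137 and 9703 counts. Its annotation holds 10 transcripts with an upstream and a downstream start, 1305 nt apart for the main long transcripts Cav1-201 and Cav1-202. Cav1-203, at chr6:17307278, and a minor transcript begin between these starts and are not counted below with the upstream start. The upstream transcript Cav1-201 encodes the long form of caveolin-1 of 178 codons, and Cav1-202 the short form of 147 codons, which begins at an internal methionine codon of the long frame. The coding start of Cav1-201 is shown because the 2 forms differ only there. Both start codons, 93 nt or 31 codons apart, are in capitals. The stretch is spliced from 2 exons within chr6:17306450-17307946 of GRCm38 (mm10), plus strand.
Cav1-201 coding start: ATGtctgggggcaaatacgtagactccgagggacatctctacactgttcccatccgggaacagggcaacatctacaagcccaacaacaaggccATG

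The upstream start supplied 72.0% of Cav1 TPM in replicate 1 and 63.9% in replicate 2, a mean of 67.9% ± 5.77 (SD, n = 2). In the tables made directly from reads it supplied 54.0% and 50.2%. Among the 4 transcripts with a complete reading frame, the long frame held 72.2% and 66.2% of TPM by the alignment-based tables. By the tables made directly from reads it held 50.4% ± 2.21 (SD, n = 2), so the majority of the long form rests on the quantification. Cav1-201 itself held 61.9% and 56.9% of Cav1 TPM, Cav1-202 held 15.5% and 19.7%, Cav1-203 held 10.7% and 11.5%, and Cav1-205 held 6.22% and 4.26%. For Cav1-202 the tables made directly from reads gave 38.4% and 41.9%.

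Cav2, which needs Cav1 to reach the cell surface and forms mixed oligomers with it, lies 17219 nt upstream of Cav1 on the same strand (ENSMUSG00000000058.6, chr6:17281185-17289115). It had 15.25 TPM in replicate 1 and 15.12 in replicate 2 (15.2 ± 0.0919, SD, n = 2). Both libraries thus placed it far below its neighbour: Cav1 TPM was 10.8-fold higher by the mean log2 ratio, which was 3.43 ± 0.15 (SD, n = 2). By the tables made directly from reads the ratio was 8.06-fold. Cav2-201, with the full frame of 162 codons, held 73.9% and 90.3% of the gene's TPM, and the shorter Cav2-203 held 18.6% and 3.91%. In the tables made directly from reads Cav2-203 held 36.5% and 34.3%, with no such gap between the animals. Cav2-202 held 7.54% and 5.84%.

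Cav3, the muscle caveolin (ENSMUSG00000062694.7, chr6:112459505-112472872, plus strand), had 99.18 TPM in replicate 1 and 103.34 in replicate 2 (101 ± 2.94, SD, n = 2), from 3070 and 2980 counts. It has a single annotated transcript. Cav3 thus lay below Cav1 in both animals. On the log2 scale of TPM plus 0.1, Cav3 over Cav1 was -0.70 ± 0.10 (SD, n = 2), so that Cav1 TPM was 1.62-fold higher. The tables made directly from reads gave -0.42, or 1.34-fold. Against Cav2, Cav3 TPM was 6.63-fold higher, with a log2 ratio of 2.73 ± 0.05 (SD, n = 2). Oxtr, the oxytocin receptor gene, which lies 810 nt from Cav3, had 8 and 12 counts.

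Of the summed caveolin TPM, which was 268 in replicate 1 and 295 in replicate 2, Cav1 held 57.3% and 59.8%. Cav3 held 37.0% and 35.0%, and Cav2 held 5.70% and 5.13%. The larger sum in replicate 2 was mostly Cav1.

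Among the cavins, Cavin1 (ENSMUSG00000004044.9, chr11:100956733-100970887, minus strand), without which caveolae do not form, was highest. It had 156.9 TPM in replicate 1 and 164.74 in replicate 2 (161 ± 5.54, SD, n = 2), from 15188 and 14865 counts, the most of the 8 genes. Cavin1-201, the transcript with the full frame of 392 codons, held 97.1% in both libraries. Cav1 and Cavin1 were close in level in each animal: the log2 ratio of Cav1 over Cavin1 was -0.03 in replicate 1 and 0.10 in replicate 2.

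Cavin4, also called MURC, the muscle cavin (ENSMUSG00000028348.7, chr4:48663514-48673502, plus strand), had 85.56 TPM in replicate 1 and 78.0 in replicate 2 (81.8 ± 5.35, SD, n = 2). It was the second cavin in both libraries. Cavin4 over Cavin1 was -0.98 ± 0.14 (SD, n = 2) on the log2 scale of TPM plus 0.1, so that Cavin1 TPM was 1.97-fold higher. The tables made directly from reads gave -1.16, or 2.23-fold.

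Cavin2, a phosphatidylserine-binding cavin that bends membranes (ENSMUSG00000045954.7, chr1:51289126-51302960, plus strand), had 46.66 and 45.13 TPM (45.9 ± 1.08, SD, n = 2). Cavin3, a cavin that binds protein kinase C delta (ENSMUSG00000037060.3, chr7:105480083-105482300, minus strand), had 26.0 and 24.84 TPM (25.4 ± 0.820, SD, n = 2). Cavin4 TPM was thus 1.78-fold above Cavin2 and 3.21-fold above Cavin3. Of the summed cavin TPM, 315 and 313, Cavin1 held 49.8% and 52.7%, Cavin4 27.2% and 24.9%, Cavin2 14.8% and 14.4%, and Cavin3 8.25% and 7.94%.

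**Figure D2:**
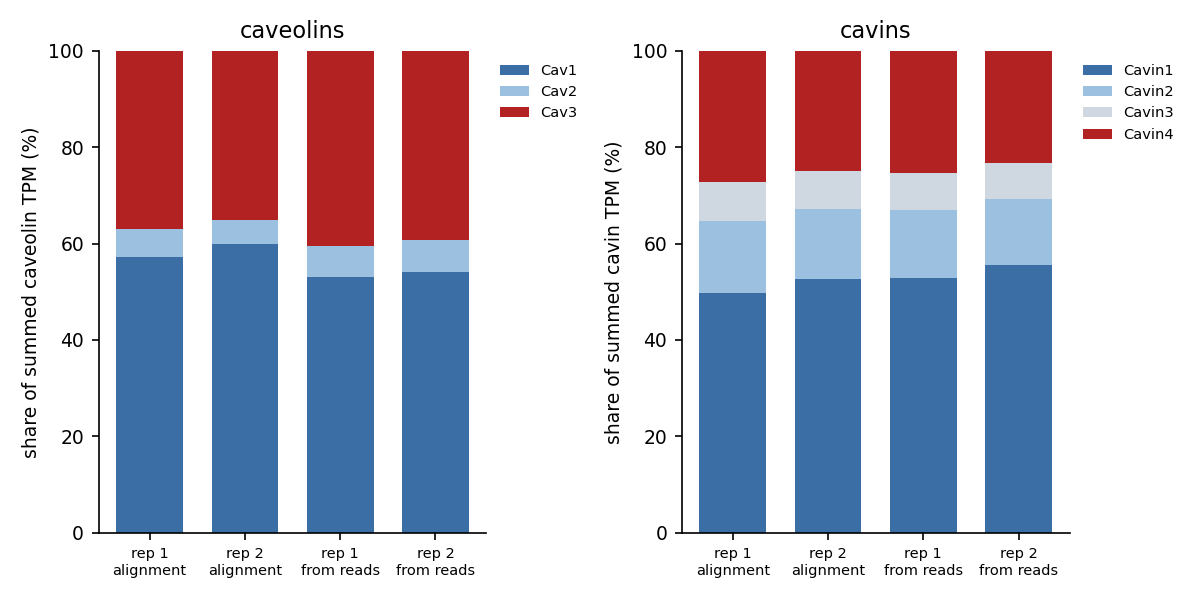
Share of each gene in the summed TPM of the caveolins (left) and of the cavins (right), in percent, for replicate 1 and replicate 2 by the alignment-based tables and by the tables made directly from reads. The muscle members are in red: Cav3 holds 35.0% to 37.0% of caveolin TPM and Cavin4 24.9% to 27.2% of cavin TPM by the alignment-based tables.

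The muscle members Cav3 and Cavin4 together had 184.74 TPM in replicate 1 and 181.34 in replicate 2, and the 5 general caveolins and cavins 398 and 426 TPM. General over muscle TPM was 2.16 and 2.35 (2.25 ± 0.138, SD, n = 2), so the general sum was larger in both animals and by a similar factor. By the tables made directly from reads the ratio was 2.16 ± 0.0962 (SD, n = 2). These sums hold 5 genes against 2. Of the general genes, only Cav1 and Cavin1 were above Cav3 and Cavin4 in both libraries. Cav2, Cavin2 and Cavin3 each lay below Cav3 and below Cavin4. The muscle pair was itself unequal: Cav3 over Cavin4 was 0.31 ± 0.14 (SD, n = 2) on the log2 scale. The tables made directly from reads gave 0.55 ± 0.13 (SD, n = 2). Summed cavin over summed caveolin TPM was 1.18 in replicate 1 and 1.06 in replicate 2.

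The start regions of the muscle members are printed because these genes stand apart by tissue, and the letters allow a reader to compare them. Each window runs from 250 bases before to 50 bases after the start, from RefSeq on GRCm38.p6, and is read 5′ to 3′ on the gene's strand. Capitals mark CAGCTG (an E-box with a GC core, the site type bound by myogenic bHLH factors), GGAATG or its complement CATTCC (the MCAT element, bound by TEAD factors), and TATAAA or its complement TTTATA. The Cav3 window is chr6:112459255-112459554 and the Cavin4 window is chr4:48663264-48663563.
Cav3 promoter: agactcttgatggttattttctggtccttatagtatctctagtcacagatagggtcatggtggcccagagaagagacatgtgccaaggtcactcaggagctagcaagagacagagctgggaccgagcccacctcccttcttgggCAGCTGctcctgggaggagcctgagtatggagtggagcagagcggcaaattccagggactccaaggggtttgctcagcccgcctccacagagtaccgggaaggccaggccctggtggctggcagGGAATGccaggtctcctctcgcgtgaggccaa
Cavin4 promoter: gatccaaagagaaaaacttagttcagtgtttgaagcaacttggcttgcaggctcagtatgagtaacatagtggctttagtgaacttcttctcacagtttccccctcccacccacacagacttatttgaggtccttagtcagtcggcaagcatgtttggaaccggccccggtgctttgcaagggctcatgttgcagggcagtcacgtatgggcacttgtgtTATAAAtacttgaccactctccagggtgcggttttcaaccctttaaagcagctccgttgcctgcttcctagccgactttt

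The Cav3 window holds CAGCTG at position -106 and GGAATG at 18 from the start. A further E-box, of the general form CANNTG, lies at -174. The Cavin4 window holds TATAAA at -30 and CANNTG at -39. Among the general members, both Cavin1 windows, which overlap almost fully, hold the MCAT complement at -249 and -247, and the upstream Cav1 window holds the TATA complement at -221. CANNTG is also in both Cav1 windows, in that of Cav2 and in the downstream window of Dysf. Of 32851 windows of this length, both strands searched, 16.3% hold CAGCTG, 14.7% GGAATG, 13.6% TATAAA and 72.3% CANNTG, a form that includes every CAGCTG. RefSeq windows were matched for 7 of the 8 members, Cavin3 being the exception, giving 10 windows. CpG pairs numbered 6 in the Cav3 window, 7 in that of Cavin4 and 4 in that of Cavin2. The windows of Cav1, Cav2, Cavin1 and Dysf held 13 to 18, against a median of 7 over all windows (interquartile range 3 to 20). These matches are descriptions of letters and show no binding.

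Dysf (ENSMUSG00000033788.15, chr6:84008590-84211060, plus strand) had 45.96 TPM in replicate 1 and 44.21 in replicate 2 (45.1 ± 1.24, SD, n = 2), from 5595 and 5226 counts. The level was nearly the same in both animals. The log2 ratio of Dysf over Cav3 was -1.17 ± 0.08 (SD, n = 2), and -1.71 by the tables made directly from reads. Its annotation has 16 transcripts, of which 12 are long coding forms of 2069 to 2120 codons. These 12 held 95.3% and 96.4% of the gene's counts but only 62.0% ± 2.43 (SD, n = 2) of its TPM, since short transcripts gain TPM for each count. Their summed TPM was 27.71 in replicate 1 and 28.17 in replicate 2. The largest of the short ones, Dysf-207, a processed transcript at the 3′ end, had 14.35 and 10.87 TPM from 128 and 90.4 counts, 31.2% and 24.6% of the gene. The tables made directly from reads listed it at 0 in both libraries, and there the long coding forms held 78.1% of the TPM. Dysf-208, another short transcript, held 3.87% and 9.10%.

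The long coding forms begin at an upstream or a downstream start, 10795 nt apart, and each gives dysferlin a different first coding exon. By the counts of the alignment-based tables the leading upstream form was Dysf-204 and the leading downstream form Dysf-202, while by the tables made directly from reads Dysf-201, from the same downstream start, was above Dysf-202 in replicate 1 and below it in replicate 2. Their first coding exons, at chr6:84008915-84009002 and chr6:84019518-84019608 of GRCm38 (mm10), plus strand, are printed with the start codon in capitals, because the choice of start decides which of them opens the protein.
Dysf-204 first coding exon: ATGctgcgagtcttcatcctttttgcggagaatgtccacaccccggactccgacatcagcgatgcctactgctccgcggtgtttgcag
Dysf-202 first coding exon: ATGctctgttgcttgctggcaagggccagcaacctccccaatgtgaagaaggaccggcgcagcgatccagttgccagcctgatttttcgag

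RefSeq windows for both starts are given for comparison, with capitals as for Cav3 and Cavin4. They lie at chr6:84008348-84008647 and chr6:84019136-84019435 of GRCm38.p6, and neither holds any of the motifs set in capitals there on either strand, so no letter is in capitals. They hold 13 and 14 CpG pairs.
Dysf upstream promoter: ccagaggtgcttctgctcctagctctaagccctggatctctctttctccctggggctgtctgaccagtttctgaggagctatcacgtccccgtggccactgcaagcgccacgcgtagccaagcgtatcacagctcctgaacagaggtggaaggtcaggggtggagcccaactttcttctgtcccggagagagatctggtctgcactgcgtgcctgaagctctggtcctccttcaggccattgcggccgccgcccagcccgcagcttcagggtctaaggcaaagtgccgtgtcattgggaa
Dysf downstream promoter: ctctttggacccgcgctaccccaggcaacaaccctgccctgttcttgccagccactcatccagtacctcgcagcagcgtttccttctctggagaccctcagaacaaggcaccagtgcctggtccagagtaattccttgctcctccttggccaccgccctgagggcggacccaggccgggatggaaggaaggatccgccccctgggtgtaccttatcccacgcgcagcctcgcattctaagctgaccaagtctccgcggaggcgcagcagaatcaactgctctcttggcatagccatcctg

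The upstream start supplied 41.0% of the TPM of the long coding forms in replicate 1 and 29.4% in replicate 2 (35.2% ± 8.15, SD, n = 2). By the tables made directly from reads it supplied 48.7% and 39.9%. Both quantifications thus placed the larger share at the downstream start in each animal and gave a lower upstream share in replicate 2. Among single transcripts, Dysf-204 held 20.4% and 13.4% of the gene's TPM, Dysf-202 22.4% and 35.9%, Dysf-203 9.16% and 0.19%, and Dysf-201 4.01% and 8.91%. The tables made directly from reads moved these shares by more than 1.5 times, to 35.0% and 21.8% for Dysf-204, 12.1% and 23.1% for Dysf-202 and 19.6% and 17.2% for Dysf-201, and gave Dysf-203 under 1% in both libraries. For Dysf-202 in replicate 1 the deposited posterior SD of the count was 422 on an expected count of 1963. Relative to the count it was larger for Dysf-201 and Dysf-203, at 225 on 354 and 316 on 797 in replicate 1. In replicate 2 it was 227 on 14.55 for Dysf-203. The gaps between the libraries in these single-transcript shares are therefore uncertain. The shares by start and by exon were chosen after the transcript values were seen.

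4 coding exons of Dysf are present in some of the long forms and skipped in others, and each keeps the reading frame. They are printed with 12 bases of the neighbouring exons in lower case and the exon in capitals, since these are the stretches by which the dysferlin isoforms differ. Positions on GRCm38 (mm10), plus strand, are chr6:84064471-84064563 for the 93-nt exon, chr6:84096477-84096518 for the 42-nt exon, chr6:84141923-84141952 for the 30-nt exon and chr6:84157139-84157201 for the 63-nt exon.
Dysf 93-nt exon: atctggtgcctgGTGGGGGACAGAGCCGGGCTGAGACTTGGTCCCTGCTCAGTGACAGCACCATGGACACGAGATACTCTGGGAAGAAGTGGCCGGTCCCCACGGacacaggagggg
Dysf 42-nt exon: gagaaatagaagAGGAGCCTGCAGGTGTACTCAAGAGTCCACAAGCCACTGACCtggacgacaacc
Dysf 30-nt exon: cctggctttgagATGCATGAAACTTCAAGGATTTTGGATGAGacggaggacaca
Dysf 63-nt exon: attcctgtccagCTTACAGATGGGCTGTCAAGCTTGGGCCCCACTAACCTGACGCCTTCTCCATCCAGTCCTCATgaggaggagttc

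Forms with the 42-nt exon (14 codons) were the majority, at 71.4% of long coding TPM in replicate 1 and 79.4% in replicate 2. The 30-nt exon (10 codons) was in 100% and 98.5%. The 93-nt exon (31 codons) was in 13.4% and 21.8%, and by the tables made directly from reads in 26.2% ± 2.08 (SD, n = 2). Lowest was the 63-nt exon (21 codons), at 6.71% and 6.28%, with 13.1% ± 1.80 (SD, n = 2) by the tables made directly from reads. Both quantifications gave the same order of the 4 exons in each library, but drew the 63-nt exon from different transcripts. By the alignment-based tables it lay in Dysf-215, from the upstream start, with 1.86 and 1.77 TPM. By the tables made directly from reads it lay mainly in Dysf-216, from the downstream start, with 4.50 and 3.35 TPM. These shares come from reads assigned to whole transcripts, not from counts of reads across each junction. They carry the uncertainty of those transcript counts, for the 93-nt exon that of Dysf-201 among them.

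**Figure D3:**
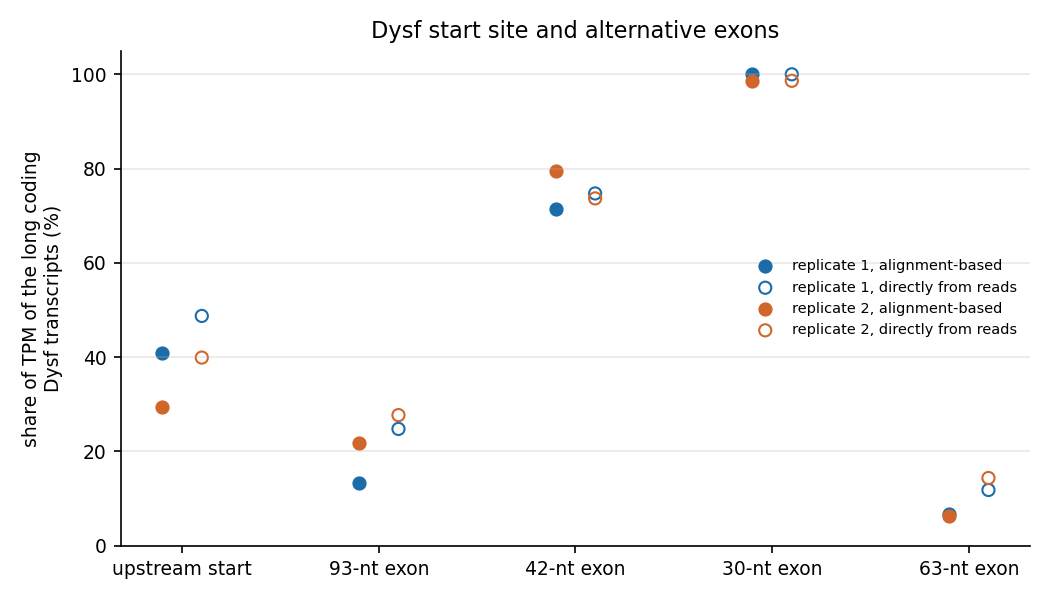
Share of the TPM of the 12 long coding Dysf transcripts that begins at the upstream start or holds each alternative exon, in percent, with filled points for the alignment-based tables, open points for the tables made directly from reads, blue for replicate 1 and orange for replicate 2. The 30-nt exon is near 100%, the 42-nt exon follows at 71.4% and 79.4%, and the 63-nt exon is lowest.

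Among the ferlins, the family of dysferlin, Dysf was the highest. Myof, myoferlin, which acts in myoblast fusion, had 8.90 TPM in replicate 1 and 8.88 in replicate 2. Dysf over Myof was 2.33 ± 0.04 (SD, n = 2) on the log2 scale of TPM plus 0.1, so that Dysf TPM was 5.03-fold higher. The tables made directly from reads gave 2.13. Fer1l6 had 1.57 ± 0.127 TPM and Otof, otoferlin, 0.485 ± 0.0212 TPM (SD, n = 2). Fer1l5 had 3 counts in replicate 1 and 0 in replicate 2, and Fer1l4 had 0 in both, which allows up to 0.0489 and 0.0525 TPM for 3 counts. Hence 3 of the 6 ferlins were above 1 TPM.

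Of the 8 partners of the caveola neck and coat, 7 were above 1 TPM, with a median of 32.8 ± 1.27 TPM (SD, n = 2). Pacsin3, the muscle member of the membrane-bending PACSINs, led with 130.89 and 120.39 TPM. Pacsin2 had 25.56 and 29.38 TPM and Pacsin1, the neuronal member, 0.32 and 0.42, so the family's muscle form was on top, unlike in the caveolins and cavins. Pacsin3 over Pacsin2 was 2.19 ± 0.23 (SD, n = 2) on the log2 scale, and 1.83 ± 0.19 by the tables made directly from reads. Ehd2, an ATPase at the caveola neck, had 65.35 and 77.82 TPM, and Ehd4 67.86 and 71.93. Their relatives Ehd1 and Ehd3 had 38.2 ± 0.163 and 2.86 ± 0.318 TPM (SD, n = 2). Ror1, a receptor that scaffolds Cav1 and Cavin1, had 4.61 ± 0.368 TPM (SD, n = 2).

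All 13 membrane repair partners of the list were above 1 TPM by the alignment-based tables, the only ones used here for Vamp7, with a median of 31.4 ± 1.54 TPM (SD, n = 2). Trim72, or MG53, which gathers vesicles at a wound and binds dysferlin and Cav3, had 103.70 and 100.49 TPM, close to the level of Cav3. By the tables made directly from reads Trim72 had 162.0 and 157.3 TPM, below Cav3 at 173.9 and 184.5. Ahnak, a giant scaffold that binds dysferlin, had 153.59 and 173.82 TPM, and the calpain subunits Capns1 and Capn2 had 115 ± 1.63 and 42.7 ± 0.757 TPM (SD, n = 2). Annexins bind calcium and membrane at a tear. The 10 annexins and S100 partners were all above 1 TPM, led by Anxa6 at 188 ± 3.10 and Anxa2 at 155 ± 21.3, then S100a11 at 138 ± 16.4 and S100a10 at 122 ± 5.83 TPM (SD, n = 2).

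Of the ESCRT genes, which pinch off damaged membrane, 8 of 9 were above 1 TPM. Chmp4b had 47.44 and 52.49 TPM, and Chmp2a 55.6 ± 1.08, Pdcd6ip (ALIX) 30.4 ± 1.70 and Tsg101 28.5 ± 1.18 TPM (SD, n = 2). All 7 transverse tubule genes passed the same level. Bin1, which bends the tubule membrane, had 341.78 and 340.14 TPM. Tcap had 313.50 and 178.61, Cacna1s, the calcium channel subunit, 129 ± 11.2, and Jph2 70.2 ± 3.55 TPM (SD, n = 2). Signalling and transport proteins placed at caveolae were above 1 TPM in 11 of 11 cases: Cd36, a fatty acid carrier, had 161.09 and 185.08 TPM, Slc2a4 (GLUT4) 58.09 and 40.84, Pdgfra 31.53 and 32.60, and Insr 28.94 and 28.37.

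**Figure D4:**
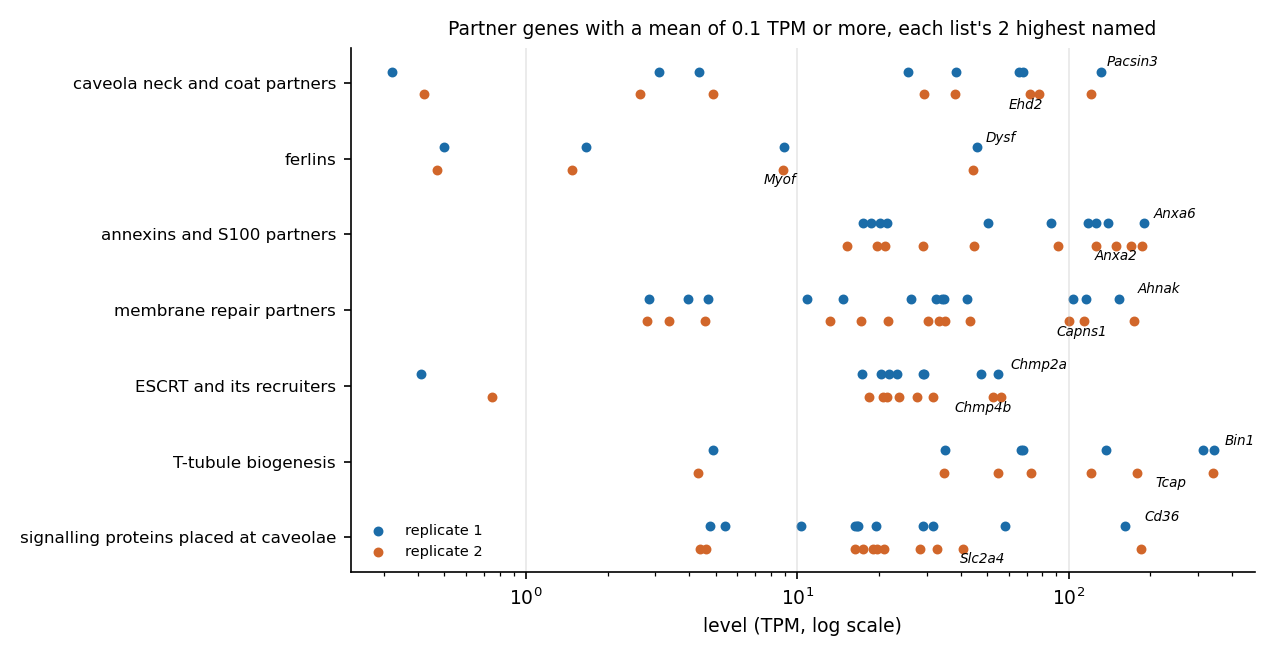
Level of the genes of the 7 partner lists with a mean of at least 0.1 TPM, on a log scale of TPM, blue for replicate 1 and orange for replicate 2, with the 2 highest genes of each list named. Pacsin3 leads the neck and coat partners, Dysf the ferlins and Bin1 the transverse tubule genes.

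Between the 2 animals, none of the 8 genes was more than 25% higher in 1 library than in the other. The comparison used expected counts scaled by TMM over genes with a mean count of at least 100, and over all 12421 such genes 13.7% passed that fold in either direction. A count of 0 among 8 is near what 13.7% gives and is no result about these genes. The share over all genes was 3.98% past 1.5-fold, and with the 25% fold it was 26.7% with a minimum of 10 counts and 46.6% with no minimum, sets that add genes of low count. The count among the 8 genes, the lowest of which had 947 and 1010 counts, stayed 0, and these changes could not have raised it. Over all genes the median size of the log2 ratio was 0.125. Cav1 was 1.13-fold higher in replicate 2, a log2 ratio of 0.17 with a 95% counting interval of 0.13 to 0.21, and Cav2 was higher by 0.18 (0.05 to 0.31). For Cav2 the TPM ratio was -0.01, of the opposite sign. Cavin4 was lower in replicate 2, at 0.900-fold, a log2 ratio of -0.15 (-0.21 to -0.09). Cavin1 had 0.05 (0.02 to 0.09) and Cavin2 -0.07 (-0.13 to -0.00). For Cav3, Cavin3 and Dysf the ratios were 0.04, -0.08 and -0.01, and their intervals held 0. The intervals cover counting error alone, in 1 library per animal, and do not test a difference between mice.

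The direction of the small ratios depended on the scaling. With TMM, 4 of the 8 genes were higher in replicate 2, and with the spike-in counts 6 were, Cavin2 and Dysf turning to 0.01 and 0.06. That scaling moved the median over all genes from -0.01 to 0.07.

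Marker lists of other cell types also differed between the libraries. Adipocyte markers (led by Fabp4 and Cfd), from a tissue rich in Cav1 and caveolae, had a summed TPM of 261 in replicate 1 and 427 in replicate 2, and 7 of 7 were more than 25% higher in replicate 2, with a median log2 ratio of 1.17. Epidermis markers (Krt10, Krt1) summed to 10.7 and 982 TPM, with 7 of 7 past that fold. Endothelial markers (Cdh5, Egfl7), from another cell type with many caveolae, summed to 281 and 291 TPM, 4 higher and 5 lower in replicate 2. All 8 muscle fibre markers (Acta1, Mylpf) were lower in replicate 2, 1 of them past the fold, with a median log2 ratio of -0.14. Pericyte and smooth muscle markers (Acta2, Rgs5) summed to 379 and 385 TPM, though by scaled counts 6 of the 8 were lower in replicate 2. Fibroblast markers (Col1a1, Col3a1) summed to 7757 and 7681, 4 higher and 4 lower. Macrophage markers (Mrc1, Lyz2) summed to 93.5 and 106 TPM, with 7 of 7 higher in replicate 2 and none past the fold. Satellite cell and myoblast markers (Myog, Itga7) summed to 266 and 240, with 1 higher and 6 lower in replicate 2, 2 of these past the fold. No marker of these lists was at 0 in both libraries. The part of these cells in the ratios of Cav1, Cav2 and Cavin4 was not tested.

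**Figure D5:**
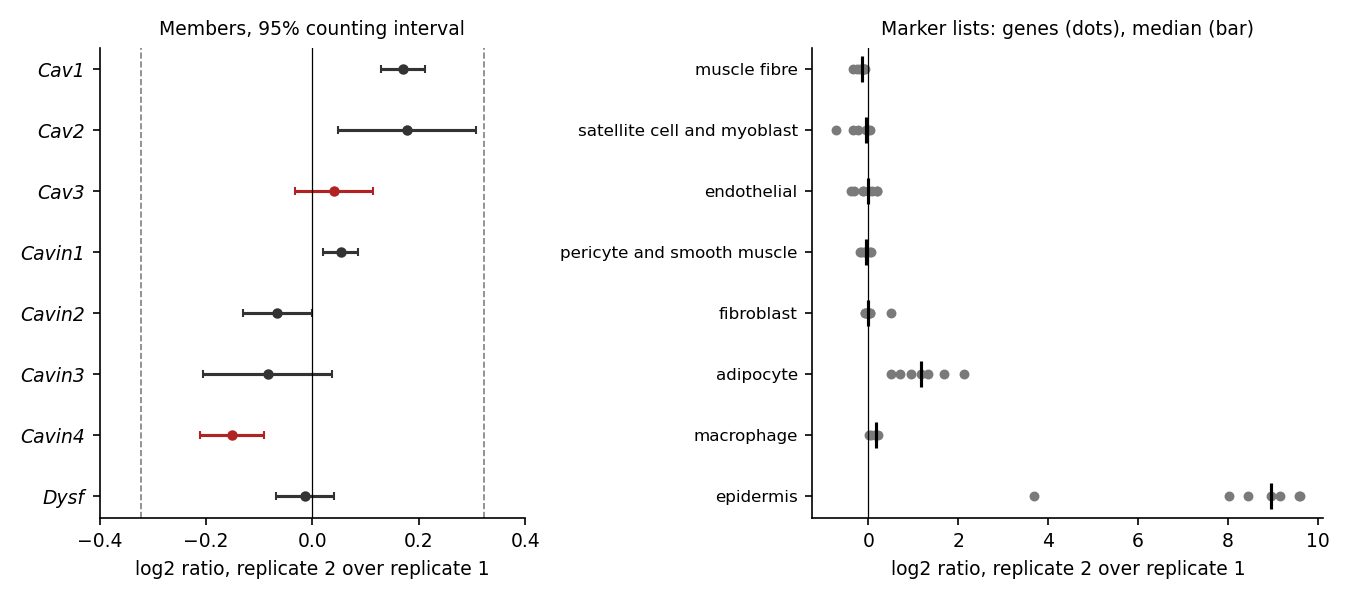
Log2 ratio of replicate 2 over replicate 1 from TMM-scaled counts, for the 8 genes on the left with 95% counting intervals (muscle members in red, dashed lines where 1 library is 25% higher) and for the marker lists on the right, where dots are genes and the bar is the median. The 8 genes lie between -0.15 and 0.18, and the adipocyte and epidermis medians are 1.17 and 8.96.

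Among the partner lists the genes past the 25% fold, named after their values were seen, were Anxa1 and Lipe, higher in replicate 2 by log2 ratios of 0.63 and 1.03, and Fer1l6, Tcap and Slc2a4, lower with -0.42, -0.83 and -0.54. None of the 13 membrane repair partners and none of the 7 neck and coat partners with enough counts passed it, against 13.7% over all genes. Lists of this size are too small for such a count to be a result about them.

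Overlapping genes took few counts. Gm15581, antisense to Cav1 and Cav2, had 0 in both libraries, 9330175M20Rik, antisense to Cavin2, had 24 and 11, and Gm45667, opposite Cavin3, had 9 and 6. Within the span of Dysf, Gm15475 had 0 and 0, Gm33024 0 and 1, and the pseudogene Gm7498, on the same strand, 18.92 and 17.84. Whether the counting used strand is not given in the sources used here, so reads of such pairs may not have been told apart.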

How the data were processed

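Total RNA was sequenced from 2 gastrocnemius libraries. Per the file headers, the authors deposited expected counts, TPM and the percent of a gene's TPM held by each transcript in the alignment-based tables, and estimated counts and TPM in the tables made directly from reads. The build is mm10, per the labels, with the GENCODE M21 annotation, per the deposited notes. The programs, with their versions, were not given in the sources used here. TPM of the alignment-based tables is scaled over all 81881 entries, and hybrid alleles were not separated.

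From these values, shares, sums and log2 ratios of TPM plus 0.1 were computed per library with Python 3.11.15, pandas 2.3.3 and SciPy 1.17.1, as mean and SD over 2 libraries. Ratios between libraries used expected counts, unrounded, plus 0.5, scaled by TMM (edgeR 4.0.16), with 95% intervals (exact, Clopper-Pearson) from how a gene's counts split. Intervals and the limit of 3 counts cover counting error only. The labels number the animals separately but carry 1 donor record, so the spread may be partly or wholly technical. The ratio script was tested on simulated data. No count test was run, since 1 group has no contrast.

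The named genes were the 8 members, all neck and coat partners and ferlins, the 4 highest of each other partner list, the 2 highest of each marker list given, and transcripts with at least 5% of a gene in either library. Dysf-215 and Dysf-216 were named in addition, after their values were seen. The members and lists were chosen with earlier results of these data known. A further marker list is not reported here. Alternatives were other scalings (DESeq2 1.42.0 size factors, spike-ins), pseudocounts, filters, the posterior mean TPM, the tables made directly from reads and each library alone.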

Additional observations from a re-analysis of the deposited data

How the results depend on the processing

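The ratios Cav3 over Cav1, Cavin4 over Cavin1 and Dysf over Myof kept their direction under the alternatives run, while Cav1 over Cavin1, near 0, was below 0 in both libraries by the tables made directly from reads. With the tables made directly from reads, Cav3 over Cav1 was -0.42, Cavin4 over Cavin1 -1.16 and Dysf over Myof 2.13 (log2), the Cav3 share of caveolin TPM was 39.9% and the Cavin4 share of cavin TPM 24.2%, each farther from the value given than 1 SD. Dysf over Myof was also 2.24 with the posterior mean TPM, 2.22 with a pseudocount of 1 and 2.24 with protein-coding transcripts alone, an alternative chosen after seeing the data. The cause was not tested. Leaving out 1 of the 2 libraries returns the value of the other, so the ranges that follow add no further check. Cav3 over Cav1 ran from -0.77 to -0.63, Cavin4 over Cavin1 from -1.08 to -0.87 and Dysf over Myof from 2.30 to 2.36. The Cav3 share ran from 35.0% to 37.0% and the Cavin4 share from 24.9% to 27.2%. The count of members past the 25% fold was 0 with DESeq2 size factors, spike-in scaling, the TPM ratio and the tables made directly from reads. It was also 0 with a minimum of 10 counts, with no minimum and past 1.5-fold. Those 3 settings could not raise it, since every member already passed the minimum of 100 counts and none passed 25%. The share of all genes ranged from 3.98% to 46.6%, the highest where genes of low count were added. No paired analysis was possible because the samples form 1 group.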
